A study of Homo sapiens with 10 samples.

Results

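T3 is a population of MDA-MB-231 cells taken from a xenograft tumour that had regressed under the Smac mimetic SM-164 and then grown back, and the labels call its cells resistant to the compound. It is described here by 4 of the 10 arrays of the series, 2 of T3 and 2 of the parental MDA-MB-231 cells, chosen by sample title. The tumours had been raised in SCID mice, which lack mature B and T cells but keep other host cells, and the mice received SM-164 into a vein at 5 mg/kg on 5 days of each week for 2 weeks; after the tumours regrew they were harvested and their tumour cells isolated. The parental cells, labelled as sensitive to SM-164, were cultured under standard conditions and had not been in an animal. MDA-MB-231 is an established human triple-negative breast cancer line of mesenchymal appearance. The other arrays, 2 for each line, measured cells of 3 further regrown tumours: T2, labelled resistant, and T6 and T8, labelled sensitive. They serve below to show where T3 differed from the other tumours.

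Each line stands for 1 source: T3 is a single tumour, and the labels do not say whether its 2 arrays came from separate cell isolations. The p-values therefore measure the spread between arrays, which may be technical, and hold for T3 and not for resistant tumours in general. No tumour raised without SM-164 was measured, so passage through the mouse, treatment, regrowth and isolation cannot be told apart in the difference between T3 and the parental cells. The tumour cells were measured in bulk, where fewer cells of a type and less RNA per cell cannot be told apart. The depth of an array is fixed by its probes, and it is the number of arrays that limits the precision here.

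SM-164 belongs to the Smac mimetics, small molecules modelled on the protein Smac (gene DIABLO), which mitochondria release during apoptosis and which binds the inhibitor of apoptosis (IAP) proteins. In cells that respond, Smac mimetics cause loss of the cellular IAP proteins, and signalling from tumour necrosis factor (TNF) and its receptor then turns from NF-kB activation towards caspase-8 and cell death. MDA-MB-231 cells make and respond to many secreted factors, among them interleukins, activin and prostaglandins, and their sublines that colonise bone or lung are known for a set of raised genes such as MMP1, PTGS2 and TNC.

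The values are log2 levels per gene, and differences are differences of log2 means, so that 1 stands for a doubling. Levels of different genes depend on their probes and are not set against each other. Of 19775 genes with a probe set of their own, 14929 reached log2 5 on at least 2 arrays and were tested. Over the genes tested, the correlation of the 2 arrays of a line was 0.9962 to 0.9983, and that of arrays from 2 lines 0.9725 to 0.9946. The adjusted p-values come from limma fitted on all 10 arrays, with Benjamini-Hochberg adjustment over the genes tested, and a gene was called where its adjusted p was under 0.05.

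T3 and the parental cells were compared for 20 markers of the line and of breast cell identity, of which 18 were tested, 3 higher and 7 lower in T3. Vimentin (VIM) stood at 14.27 in T3 and 14.13 in the parental cells, CD44 at 12.6 and 12.49, and the receptor kinase AXL at 12.85 and 12.88, while the luminal markers PGR and FOXA1 and the epithelial regulator ESRP1 lay below log2 5 in both. Other luminal and epithelial markers were measured well above that: GATA3 stood at 8.82 in the parental cells and 7.69 in T3, EPCAM at 8.4 and 8.44, KRT8 at 12.37 and 12.02 and KRT18 at 13.48 and 13.26. Of the line's own markers, S100A4 fell from 13.08 to 10.49. Markers of host cell types were in part measured. The host was a mouse and the genes measured are human, so these levels cannot show how many host cells T3 held. In T3, 7 of 12 endothelial, 8 of 12 fibroblast and pericyte, 5 of 10 macrophage and 5 of 8 blood and lymphocyte markers had means of log2 5 or more, against 7, 8, 6 and 5 in the parental cells. The endothelial markers CDH5, VWF, TIE1, EMCN and ERG, the macrophage markers CD163, ITGAM, TYROBP, MSR1 and MRC1, the leukocyte marker PTPRC and the fibroblast markers PDGFRA, LUM, COL3A1 and FAP were all below log2 5 in T3. Of the 10 endothelial markers tested, 4 were higher in T3 than in the parental cells and 0 lower: ESAM by 1.03, ENG by 0.76, ROBO4 by 0.48 and KDR by 0.40. The call of ENG was lost with its probe sets averaged, and that of KDR without either parental array or the second T3 array and when the T3 and parental arrays were fitted alone. Of the 8 fibroblast and pericyte markers tested, 2 were higher and 1 lower. Their part in the differences below was not tested. The mean level over the 12 endothelial markers was 5.93 to 6.01 on the T3 arrays and 5.77 to 5.80 on the parental ones, and that over the 10 macrophage markers was 5.38 to 5.47 against 5.61 to 5.69.

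Against the parental cells 3294 genes were higher in T3, 22.1% of those tested, and 2359 were lower, 15.8%. Most of these differences were small: 319 genes (2.14%) were called and higher by at least 1 on the log2 scale and 234 (1.57%) lower by that much. The median difference over all genes tested was 0.001 and the median standard error 0.104. Without the second T3 array the count of higher genes was 2085. The split between higher and lower genes depends on the scaling: 58.3% of the called genes were higher as deposited, 49.4% after quantile normalisation was repeated and 67.3% after the array medians were set equal, with medians over all genes of -0.019 and 0.061.

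**Figure D1:**
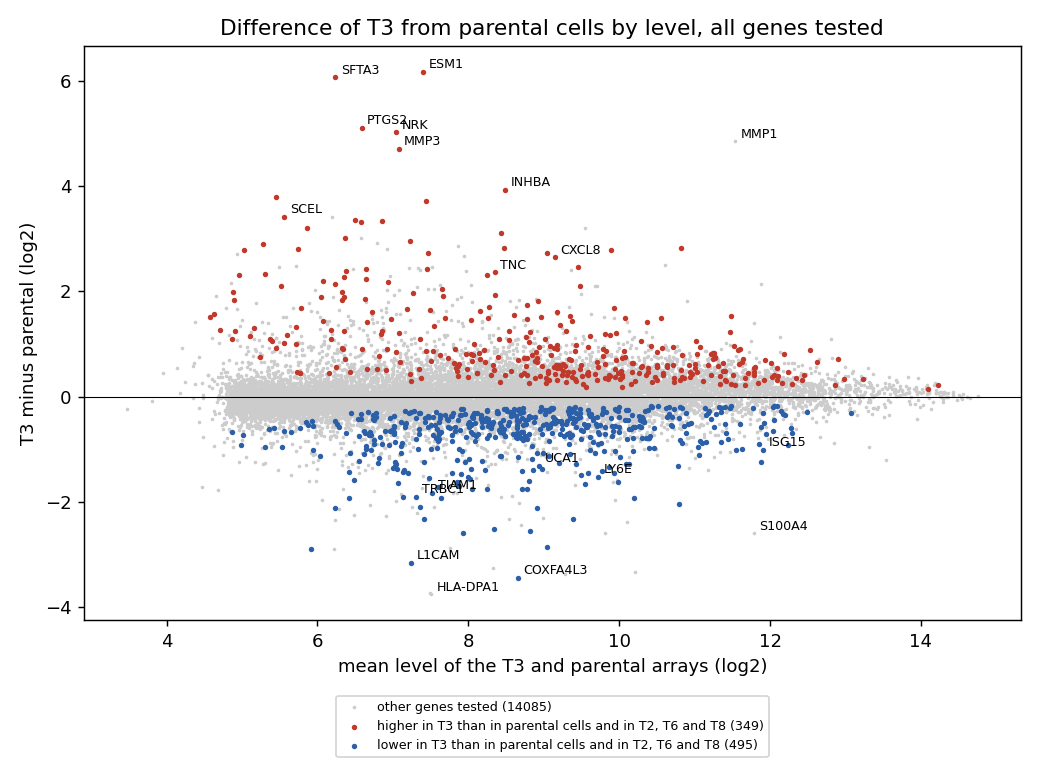
Difference between T3 and the parental cells (log2, vertical axis) against the mean level of their 4 arrays (log2, horizontal axis) for the 14929 genes tested. Red and blue points are the 349 and 495 genes that were called higher or lower in T3 than in the parental cells and than in each of T2, T6 and T8. The largest rises, ESM1 and SFTA3, exceed 6 and start from parental levels near background.

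The 12 largest rises over the parental cells were those of ESM1, SFTA3, PTGS2, NRK, MMP1, MMP3, INHBA, NAP1L3, MAGEC1, BEX5, SCEL and ID4. MMP1, the interstitial collagenase, rose from 9.22 and 8.99 on the parental arrays to 13.91 and 14.02 in T3, a difference of 4.86 (SE 0.07, limma adjusted p = 3.77e-15). T2, T6 and T8 reached mean levels of 13.87, 13.23 and 13.44, so the rise of MMP1 was common to the 4 tumours. KISS1, a secreted peptide named as a metastasis suppressor, showed the same kind of pattern, with 7.97 and 7.91 in parental cells, 11.08 and 11.21 in T3 and means of 10.65, 11.33 and 12.10 in T2, T6 and T8; it was chosen after its values were seen. BEX5 rose by 3.42 in T3 and reached a higher mean in T8, 8.55, than in T3. The other 10 of the 12 were called higher in T3 than in each other tumour as well. SFTA3 and SCEL among them reached log2 5 only on T3 arrays, so their calls add no support.

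The 12 largest falls were those of HLA-DPA1, SERPINA1, COXFA4L3, CEMIP, CYP1B1, OLFML2A, L1CAM, AQP1, FLG, HLA-DRA, PLAAT4 and CD74. Only 4 of them, COXFA4L3, L1CAM, FLG and PLAAT4, were called lower than each other tumour too, and FLG lost that call without either T3 array or the first T6 or T8 array. SERPINA1, which encodes alpha-1-antitrypsin, stood at 9.45 and 9.27 in the parental cells, 5.81 and 5.45 in T3, and 5.76, 5.35 and 6.51 in T2, T6 and T8. CEMIP, a protein that breaks down hyaluronan, fell from 10.97 on both parental arrays to 7.53 and 7.65 in T3, and its means in the other tumours were 7.34 to 7.80. A second, dimmer probe set of CEMIP gave a difference of -0.60 between T3 and parental cells, so the size of its fall depends on the probe set. CYP1B1, a cytochrome that oxidises oestrogens and xenobiotics, fell by 3.33 to 8.53 and 8.55, a mean that T8 shared (8.52). The largest falls were thus mostly common to the regrown tumours. The largest rises were mostly higher in T3 than in the others, also with SFTA3 and SCEL left aside.

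To find what the other tumours did not show, T3 was compared with each of them in the same fit. T3 differed from T2 in 2525 genes higher (16.9%) and 2069 lower (13.9%), from T6 in 1691 (11.3%) and 2039 (13.7%), and from T8 in 696 (4.66%) and 2054 (13.8%). Genes called in 1 direction in all 3 of these comparisons and against the parental cells are called T3-particular below; the 4 comparisons share the T3 arrays, so an error on those arrays enters all of them. There were 349 such genes higher in T3 (2.34%) and 495 lower (3.32%). The least of the 4 differences was at least 1 in 40 of the higher and 12 of the lower genes. Of the 349, 170 were not called higher than parental in any other tumour and 58 were called higher in all 3; of the 495, 300 were called lower in no other tumour and 83 in all 3.

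These counts rest on few arrays. The number higher was 171 without the second T3 array and 217 and 184 without the first or the second T8 array, against 349. The number lower was 260 without the first T3 array and 274 and 326 without the first or second T8 array, against 495. The number higher was 549 after repeated quantile normalisation, and centring the array medians gave 203 higher and 313 lower.

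Among the genes tested, 22 reached log2 5 only on T3 arrays, so that they entered the test through T3 alone, and 14 of these are among the 349. SFTA3, SCEL, SEMA3E, EPB41L3, BCHE and WNT5A are among the 14, and their calls support nothing. In 17 of the 349 the parental cells and the 3 other tumours all had means below log2 5; for such genes the difference is measured against background and its size is uncertain.

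**Figure D2:**
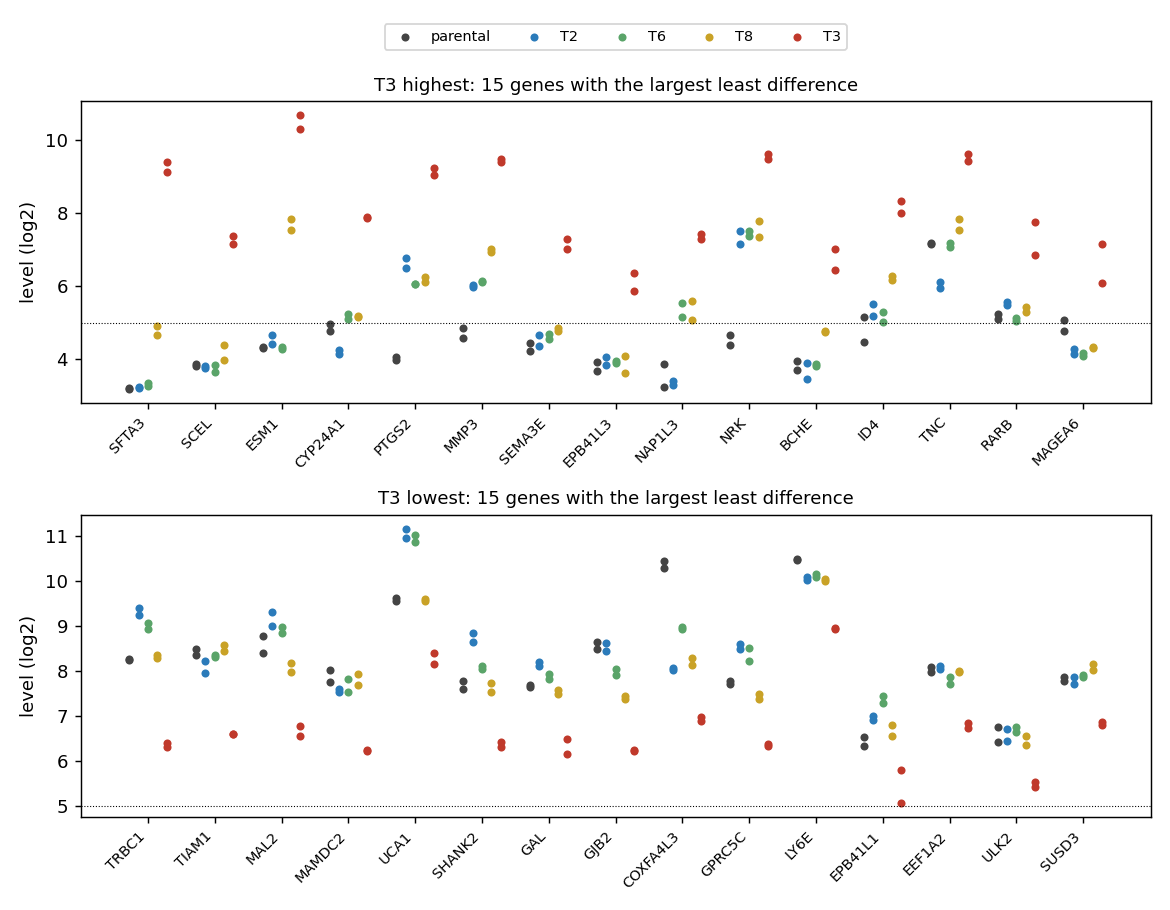
Level (log2) on each of the 10 arrays, coloured by line, for the 15 T3-particular genes with the largest least difference in each direction; the dotted line is log2 5. In both panels the T3 arrays lie beyond all 8 other arrays for each of the 30 genes, which largely follows from how the genes were chosen. SFTA3, SCEL, SEMA3E, EPB41L3 and BCHE reached log2 5 only on T3 arrays.

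ESM1, a proteoglycan secreted by endothelial and some tumour cells, showed the largest rise. Its level was 4.30 and 4.34 on the parental arrays, 4.43 and 4.68 in T2, 4.34 and 4.28 in T6, 7.85 and 7.53 in T8, and 10.29 and 10.68 in T3. T3 exceeded the parental cells by 6.17 (SE 0.15, limma adjusted p = 6.08e-13) and T8, the only other tumour above background, by 2.80. Of the endothelial markers, ESAM, ENG, ROBO4 and KDR were also higher in T3 than in the parental cells. CDH5, VWF, TIE1, EMCN and ERG lay below log2 5 in T3. Unlike ESM1, ESAM was lower in T3 than in each other tumour, a call lost in 5 of 18 alternatives. Against T2, T6 and T8, 2, 3 and 5 of the 10 endothelial markers tested were lower in T3 (13.9%, 13.7% and 13.8% of all genes). Those higher numbered 0, 0 and 1 (16.9%, 11.3% and 4.66% of all genes). The part of these markers in the rise of ESM1 was not tested.

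SFTA3, a lung-expressed gene that lies beside NKX2-1 on chromosome 14, was near background in the parental cells (3.19 and 3.22), T2 (3.24 and 3.21) and T6 (3.27 and 3.35). It was 4.91 and 4.67 in T8 and 9.13 and 9.41 in T3. It is among the 22 genes that reached log2 5 only on T3 arrays, so that it had to differ once tested; its difference from the parental cells, 6.07, is measured against background and is given with no test. NKX2-1, which encodes the transcription factor of lung and thyroid development, was also T3-particular, at 5.58 and 5.45 in parental cells, 5.76 to 6.35 on the arrays of the other tumours and 7.55 and 7.97 in T3 (difference 2.24, SE 0.16, adjusted p = 3.99e-08). It ranked below the 15 largest and was named after its values were seen. The genes share a RefSeq start region on GRCh38.p14, shown because both rose in T3: it is listed under both names, chr14:36519557-36519806, minus strand, and the 250 bases before the start read, 5′ to 3′ and with no part marked, as follows.
SFTA3 and NKX2-1: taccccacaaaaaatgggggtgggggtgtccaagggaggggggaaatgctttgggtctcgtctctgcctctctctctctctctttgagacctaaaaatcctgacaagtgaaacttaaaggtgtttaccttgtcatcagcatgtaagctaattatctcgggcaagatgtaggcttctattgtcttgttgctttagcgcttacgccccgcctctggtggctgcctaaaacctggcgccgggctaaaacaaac

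Genes of secreted and signalling proteins were among the T3-particular rises. PTGS2 encodes an inducible cyclooxygenase that makes prostaglandins; it was at 4.066 and 3.997 in the parental cells, between 6.06 and 6.77 on the 6 arrays of the other tumours, and at 9.05 and 9.23 in T3. Its rise over the parental cells was 5.11 (SE 0.12, adjusted p = 6.08e-13), and T3 exceeded the 3 tumours by 2.51 to 3.08. PLA2G4A, the cytosolic phospholipase that releases arachidonic acid for the same pathway, rose with it from 3.84 and 3.43 to 6.30 and 6.54, while its mean was 4.94 to 5.08 in the other tumours. Of the 15 measured genes of prostaglandin synthesis and reception these were the 2 that rose. PTGES, PTGES2 and AKR1C3 fell, and the rest were not called. PTGES2 fell by 0.20 only. Its call was lost in 10 of 19 alternatives, those without either T3 array among them. The fall of the synthase PTGES, from 10.06 and 10.03 to 9.12 and 9.18, was of the same size in T2 and T8 (means 9.19 and 9.16).

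MMP3, stromelysin 1, stood at 4.58 and 4.86 in the parental cells, 5.98 to 7.01 on the arrays of T2, T6 and T8, and 9.39 and 9.48 in T3, a rise of 4.71 (SE 0.12, adjusted p = 6.77e-13). INHBA, the subunit of activin A, rose by 3.93 (SE 0.10, adjusted p = 1.34e-12), from 6.36 and 6.69 to 10.39 and 10.53. The other tumours lay between, with means of 7.76 in T2, 8.96 in T6 and 9.07 in T8. FST, which encodes follistatin and binds activin, rose by 1.40 to 12.46 and 12.50, a level the other tumours shared (12.49 to 12.71). INHBB, the other activin subunit, fell by 1.01, and was lower in T3 than in T2 and T6 and not called against T8.

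CXCL8, the neutrophil chemokine interleukin-8, rose from 7.79 and 7.87 to 10.40 and 10.55 (difference 2.65, SE 0.08, adjusted p = 7.32e-12), with means of 8.73, 8.88 and 9.79 in T2, T6 and T8. TNC, the matrix protein tenascin C, moved in opposite directions in the 2 resistant tumours. It was 7.15 and 7.18 in parental cells, 5.94 and 6.12 in T2, 7.07 and 7.17 in T6, 7.85 and 7.55 in T8, and 9.43 and 9.63 in T3. SEMA3E, a guidance ligand, was at 4.24 to 4.82 as line means outside T3 and at 7.01 and 7.29 in T3.

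Further T3-particular rises came from intracellular proteins. SCEL, a protein of the cornified envelope, was below log2 5 on every array outside T3 (3.67 to 4.38) and at 7.16 and 7.38 in T3. CYP24A1, the enzyme that inactivates vitamin D, was 4.96 and 4.77 in the parental cells, 4.14 to 5.24 in the other tumours and 7.89 and 7.86 in T3. ID4, an inhibitor of helix-loop-helix factors, rose by 3.35, while its relatives ID1 and ID3 were T3-particular in the other direction. ID1 fell from 11.62 and 11.61 to 10.55 and 10.47, and ID3 from 9.11 and 8.99 to 8.30 and 8.32. The T3-particular call of ID3 was lost in 5 of 17 alternatives, those without any 1 of the T3 or T6 arrays among them. ID2 rose by 1.06 over the parental cells but stayed below the means of T2 (9.23), T6 (8.92) and T8 (7.997).

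The kinase gene NRK rose by 5.03 in T3, with 4.39 and 4.67 in parental cells, 9.48 and 9.63 in T3 and 7.34 to 7.56 as means of the other tumours. Others of the 15 were BCHE (butyrylcholinesterase, rise 2.91), the membrane skeleton gene EPB41L3 (2.31) and NAP1L3 (3.80). For RARB, the retinoic acid receptor beta, the T3 arrays differed by more than for most genes, at 6.85 and 7.75, against 5.09 to 5.53 as line means elsewhere. Its other probe sets above log2 5 gave differences of 0.28, -0.03 and 1.14, so that its rise depends on the probe set.

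Cancer-testis antigens, genes normally confined to germ cells, were measured in 8 cases, and 3 rose in T3, all T3-particular: SPANXB1, MAGEC1 and MAGEA6. SPANXB1 stood at 9.40 on both parental arrays and at 12.12 and 12.32 in T3, with means of 8.61, 9.97 and 11.25 in T2, T6 and T8. MAGEC1 rose from 5.45 and 5.71 to 9.22 and 9.37, close to its mean of 8.79 in T8, and its call against T8 was lost without the second T3 or T8 array. MAGEA6 was lower in T2, T6 and T8 (means 4.14 to 4.33) than in the parental cells (5.08 and 4.79) and higher in T3 (6.09 and 7.16). SPANX and MAGE genes have near-identical copies, and which copy the probes measured is uncertain.

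The T3-particular falls were smaller than the rises. TRBC1, the T cell receptor beta constant gene, fell from 8.26 and 8.28 to 6.32 and 6.40 (difference -1.91, SE 0.09, adjusted p = 6.16e-10), while T2 and T6 stood above the parental cells at means of 9.34 and 9.02. CD3D, the marker of T cells on the list of host cell markers, was at 5.25 and 5.34 in T3 and 5.37 and 5.39 in the parental cells. TIAM1, an exchange factor that activates Rac, fell from 8.37 and 8.51 to 6.61 on both T3 arrays, with 7.97 to 8.58 on the arrays of the other tumours. UCA1, a long non-coding RNA, was at 9.57 and 9.62 in the parental cells, 10.88 to 11.17 in T2 and T6, 9.57 and 9.61 in T8, and 8.41 and 8.15 in T3. T3 was thus the only 1 of the 4 tumours in which UCA1 was called below the parental cells.

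LY6E, a membrane protein induced by interferon, was at 10.50 and 10.47 in the parental cells, 10.03 to 10.13 as means of the other tumours and 8.95 and 8.96 in T3 (difference -1.53, SE 0.07, adjusted p = 2.36e-10). COXFA4L3, a mitochondrial protein, fell furthest of the T3-particular genes, from 10.45 and 10.31 to 6.88 and 6.98, and was at 8.04 to 8.98 in the other tumours. GJB2, which encodes the gap junction protein connexin 26, fell by 2.33 to 6.26 and 6.24, below means of 8.53, 7.99 and 7.42 in T2, T6 and T8. MAL2, a protein of apical transport, fell by 1.92. The neuropeptide gene GAL fell by 1.35, the orphan receptor gene GPRC5C by 1.38 and the scaffold gene SHANK2 by 1.32. L1CAM, an adhesion molecule, was 8.85 and 8.79 in the parental cells, 5.60 and 5.74 in T3 and 6.48 to 6.998 as means in the others. The calls of T3 against the parental cells and all 3 tumours held for TRBC1, TIAM1, UCA1, LY6E, COXFA4L3, GJB2, MAL2 and GAL under each array left out; those of SHANK2 and L1CAM were lost when probe sets were averaged, and that of GPRC5C when probe sets marked as less specific were left out.

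A further 89 genes (0.596% of those tested) were higher in T3 than in each other tumour without being called above the parental cells, and 378 (2.53%) lower without being called below them. In these T3 stayed near the parental cells, or moved less than the other tumours did. CDH11, an adhesion protein of mesenchymal cells, was 11.03 and 10.99 in the parental cells and 10.81 and 10.89 in T3, while T2, T6 and T8 had fallen to 10.08, 10.03 and 9.62. PRKACB, a catalytic subunit of protein kinase A, stood at 9.07 and 9.13 in parental cells, 9.08 and 9.17 in T3 and 8.21 to 8.36 in the other tumours. On the other side, EREG, the EGF receptor ligand epiregulin, rose from 7.92 and 7.57 to 9.61 and 9.57 in T3 but to 11.67, 11.58 and 10.70 in T2, T6 and T8; a second probe set gave a difference of -0.12 between T3 and parental cells. KYNU, an enzyme of tryptophan breakdown, rose by 1.04 in T3 to 7.42 and 7.50, against 9.70, 9.87 and 8.71. TAGLN, the actin-binding protein transgelin, rose to 8.87 and 8.79 in T3 and to 10.98, 10.77 and 9.94 in the others; without the probe sets marked as less specific its difference from the parental cells was -0.03. BCL2A1, an anti-apoptotic BCL2 relative, showed the same order, at 3.67 on both parental arrays, 5.10 and 5.09 in T3 and 7.92, 6.70 and 5.96 in T2, T6 and T8.

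Gene lists of pathways were read against these shares of all genes. The list of the drug's own targets and partners showed small changes in T3. BIRC2, which encodes the cellular IAP protein cIAP1, was 12.27 and 12.22 in parental cells and 12.40 and 12.47 in T3. The difference was 0.19 (SE 0.06, adjusted p = 0.0173). Its call was lost in 3 of 19 alternatives, those without the second parental or T3 array among them. XIAP, the IAP protein that blocks caspases directly, rose by 0.56 (SE 0.12, adjusted p = 0.00258), from 9.86 and 9.46 to 10.07 and 10.36, and this call was lost without the second T3 array. It was higher in T3 than in T2 by 0.98 and not called against T6 or T8. DIABLO rose by 0.20 (SE 0.06, adjusted p = 0.0224). Its call was lost in 5 of 18 alternatives, those without either parental array or the second T3 array among them. In all, 4 of 10 IAP proteins and antagonists rose and 1 fell (XAF1), with a median difference of 0.07, and none was T3-particular; 2 rose without the second parental array and 1 without the second T3 array. BIRC3 and RIPK1 were not analysed here.

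TNF itself was near background, at 4.89 and 4.82 in parental cells and 5.09 and 4.73 in T3 (difference 0.06, SE 0.15, adjusted p = 0.807). Its receptor TNFRSF1A was lower by 0.24 in T3 (10.45 and 10.50 against 10.71 and 10.73, SE 0.06, adjusted p = 0.00669), a call lost when the array medians were centred. CASP8, the initiator caspase of the death receptors, was 8.76 and 8.38 in parental cells and 8.11 and 8.22 in T3 (difference -0.41, SE 0.12, adjusted p = 0.0162). The call of CASP8 was lost in 4 of 18 alternatives, those without the first parental or the first T3 array among them. CFLAR, which encodes its inhibitor c-FLIP, differed by -0.10 (SE 0.07, adjusted p = 0.279). LRIG1, a brake on receptor tyrosine kinases, fell by 0.69 (SE 0.14, adjusted p = 0.00142), from 7.63 and 7.40 to 6.70 and 6.95. T2 had a still lower mean of 6.54, while T6 and T8, at 7.57 and 7.80, were higher than T3 by 0.75 and 0.98; the fall was not called when the probe sets of the gene were averaged.

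Of the 22 genes of the TNF receptor and death complexes, 6 were higher and 5 lower, shares of the order of those over all genes. MAP3K7, the kinase TAK1, was higher by 0.73 in T3 (8.57 and 8.52 to 9.19 and 9.36), and MAP3K14, the kinase NIK of the non-canonical NF-kB pathway, fell from 8.42 and 8.45 to 7.39 and 7.41. The deubiquitinase OTULIN fell by 0.45. MAP3K14 kept its T3-particular call under each array left out. That of MAP3K7 was lost in 10 of 17 alternatives, those without either array of T3, T6 or T8 among them. That of OTULIN was lost in 6 of 18, those without either array of T3 or T8 among them. TNFAIP3, the feedback inhibitor A20, rose by 1.71 to 9.40 and 9.59 in T3. T3 exceeded T2, T6 and T8 by 0.25, 0.48 and 0.69, so these tumours also lay above the parental cells. FAS, a death receptor, was T3-particular: 6.85 and 6.89 in parental cells, means of 7.10, 6.79 and 7.22 in T2, T6 and T8, and 8.19 and 8.23 in T3 (difference 1.34, SE 0.11, adjusted p = 1.58e-07). TNFRSF21, death receptor 6, was T3-particular in the other direction, with 12.33 and 12.40 in parental cells and 11.63 and 11.77 in T3. The ligand TNFSF10 (TRAIL) fell by 2.31 to 7.77 and 7.90, in common with the other tumours (7.33 to 7.87).

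In the BCL2 family 5 of 16 genes rose and 4 fell, where 22.1% and 15.8% of all genes did. Fewer of the family rose without the second parental or T3 array. BIK and BID, both promoters of cell death, were T3-particular falls, BIK from 7.89 and 7.99 to 7.18 and 7.36 and BID from 9.43 and 9.41 to 8.94 and 8.99; that of BID was lost when probe sets marked as less specific were left out. MCL1, an inhibitor of cell death, rose by 0.31. Among 8 caspases and apoptosome genes 5 rose, led by CASP4 (1.45), CASP1 (0.98) and CASP9 (0.83). The other tumours lay within 0.35 of T3 for these 3 genes. Without the probe sets marked as less specific 1 caspase gene rose, and CASP9 differed by -0.04.

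The interferon response was lower in T3 than in the parental cells and than in each other tumour in many of its members. This list holds genes that cells switch on after interferon or viral RNA, among them IFIT1, IFIT2 and IFIT3, which bind foreign RNA, ISG15, a ubiquitin-like modifier, and MX1, an antiviral GTPase. Of 36 measured members 25 were lower in T3 than in the parental cells and 4 higher, with a median difference of -0.70 against 0.001 over all genes. Against the other tumours, 20 of 36 were lower in T3 than in T2 (13.9% of all genes were), 20 lower than in T6 (13.7%) and 13 lower than in T8 (13.8%), with medians of -0.56, -0.37 and -0.18.

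There were 9 T3-particular members, all lower: IFIT1, IFIT2, IFIT3, ISG15, ISG20, MX1, OAS2, OASL and RIGI. ISG15 was 12.45 and 12.38 in the parental cells, 13.14 and 13.19 in T2, 12.56 and 12.66 in T6, 12.03 and 12.18 in T8, and 11.44 and 11.38 in T3, a fall of 1.01 (SE 0.06, adjusted p = 1.3e-08). The 2 resistant tumours thus lay at opposite ends for ISG15, with T2 highest and T3 lowest. OASL had the same order, at 9.60 and 9.50 in the parental cells, means of 10.67, 9.87 and 8.94 in T2, T6 and T8, and 8.22 and 8.10 in T3. IFIT1 fell from 10.59 and 10.48 to 9.23 and 9.15, with 11.15 and 11.25 in T2, 10.32 and 10.33 in T6 and 9.75 and 9.59 in T8. RSAD2 and SAMD9L fell by 2.15 and 1.84, but to levels that T8 shared (5.21 and 6.14 as means). The members that rose were IFITM1, IFITM2, IRF7 and IRF9, by 0.23 to 0.62, and none of these was T3-particular. Of the 9 T3-particular calls 8 held with each array left out, and that of IFIT2 was lost without the first T3 or T8 array; IFITM2 and IRF7 lost their calls without the first parental array.

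Interferon-stimulated genes are known to carry a short element bound by the factors ISGF3 and IRF near their start. Letters of that kind, 2 copies of GAAA with any 2 bases between them, were searched on both strands in the RefSeq start regions, 250 bases before to 50 after each start (GRCh38.p14). They occurred in 1255 of 35116 regions (3.57%) and in at least 1 region of 4.38% of the genes listed. Of the 9 T3-particular interferon genes 6 had an entry, and 5 of these held the letters: IFIT1, IFIT3, ISG15, ISG20 and MX1. RIGI did not, and IFIT2, OAS2 and OASL had no entry. Over the list, 28 measured members had an entry and 20 held the letters. The match is a description of the start regions and no measure of factor binding. The matching stretches before the start of 4 of these genes are shown because these genes were lowest in T3, 5′ to 3′, with the matching letters of either strand in capitals; overlapping matches run together. They lie at chr10:89392482-89392554 for IFIT1, chr10:89327816-89327909 for IFIT3, chr1:1013359-1013424 for ISG15 and chr15:88638922-88638981 for ISG20, all on the plus strand.
IFIT1: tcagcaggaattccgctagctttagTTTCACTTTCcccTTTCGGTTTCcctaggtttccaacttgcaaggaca
IFIT3: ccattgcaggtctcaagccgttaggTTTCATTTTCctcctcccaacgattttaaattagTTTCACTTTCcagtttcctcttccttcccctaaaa
ISG15: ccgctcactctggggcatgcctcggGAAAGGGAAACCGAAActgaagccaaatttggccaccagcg
ISG20: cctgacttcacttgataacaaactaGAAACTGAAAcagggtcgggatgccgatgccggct

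Genes of antigen presentation were lower in T3 than in the parental cells. All but 1 of the 16 measured class I genes were lower than in the parental cells, with a median of -0.77; 9 were lower when probe sets marked as less specific were left out. Against T2, T6 and T8, 3, 4 and 7 of the 16 were lower in T3 and 1, 0 and 0 higher, with medians of -0.12, -0.15 and -0.22. HLA-B fell from 14.13 on both parental arrays to 12.88 and 12.99, and PSMB9, a subunit of the immunoproteasome, from 10.68 and 10.77 to 9.15 and 9.07; T2, T6 and T8 had means of 13.06 to 13.17 and 9.10 to 9.58. TAP1, the peptide transporter, was the only T3-particular member, at 9.98 and 10.01 in the parental cells, 9.69 to 9.74 as means in the other tumours and 9.21 and 9.26 in T3. Of 12 class II genes 7 fell, 4 without the less specific probe sets. Against T2, 5 of the 12 were higher in T3 and 0 lower; against T6 1 was higher and 1 lower, and against T8 1 and 2. HLA-DRA fell from 9.23 and 9.17 to 6.33 and 6.30, and the other tumours were at 5.74 to 6.45. The invariant chain CD74 fell by 2.60; of its further probe sets, 1 gave a difference of 0.03.

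Genes of hypoxia and glycolysis were lower in T3 than in T2 and T6 in more cases than they were lower than in the parental cells; against T8 the number was smaller. They include targets of hypoxia-inducible factors and the enzymes that take glucose to lactate. Against the parental cells 12 of 25 were lower and 2 higher, with a median of -0.19. Against T2, T6 and T8, 18, 14 and 10 of the 25 were lower in T3, with medians of -0.55, -0.28 and -0.12 (medians over all genes were -0.006, 0.018 and -0.028). The T3-particular members, all lower, numbered 8: BNIP3, EGLN3, ENO2, P4HA1, PDK1, PFKFB4, PFKP and SLC2A3.

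ENO2, the neuronal enolase, was 10.50 and 10.49 in the parental cells, 11.74, 11.68 and 10.95 as means in T2, T6 and T8, and 10.02 and 10.07 in T3. P4HA1, a collagen prolyl hydroxylase, was 10.46 and 10.44 in the parental cells, 10.92 and 11.15 in T2, 10.70 and 10.71 in T6, 10.61 and 10.54 in T8 and 10.04 and 10.13 in T3. SLC2A3, the glucose transporter GLUT3, fell from 9.17 and 9.12 to 8.12 and 8.51, while T2 and T6 had means of 9.47 and 9.50. In these genes T3 lay below the parental cells while T2 and T6 lay above them. ADM, the peptide adrenomedullin, and HK2, a hexokinase, were the members that rose, by 0.51 and 0.85, and ADM rose less than in the other tumours (12.33 to 12.62). With arrays left out, 4 of the 8 calls held in each case, those of ENO2, P4HA1, PFKP and SLC2A3. BNIP3, PDK1, EGLN3 and PFKFB4 each lost the call without the first T8 array, among others, and the count of members lower than in T8 was then 6; averaging probe sets also ended the calls of P4HA1 and PFKP.

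Many transcripts of the ERK output list were higher in T3 than in the parental cells, while ERK activity itself was not measured. The list holds immediate early genes and the phosphatases and inhibitors that ERK induces, and 18 of its 25 measured members were higher in T3 and 2 lower (IER3 and FOSL1), with a median of 0.32. EGR1, a zinc finger factor, rose from 7.71 and 7.63 to 10.31 and 10.50, and DUSP1, a phosphatase of MAP kinases, from 9.974 and 9.999 to 11.75 and 11.86. T3 was higher in 13 of the 25 against T2, 14 against T6 and 2 against T8, where 4 were lower. Of all genes, 16.9%, 11.3% and 4.66% were higher in T3 than in T2, T6 and T8. The counts of the list against T2 and T6 were smaller without the second T3 array. The fall of FOSL1 was not called in 2 of 19 alternatives, that without the first T3 array among them. FOS was T3-particular, at 5.96 and 5.94 in the parental cells, 6.35 to 6.83 as means in the other tumours and 7.34 and 7.38 in T3 (difference 1.42, SE 0.11, adjusted p = 1.19e-07), and its call was lost without the second T8 array. EGR1 was T3-particular too, by 0.33 to 1.26 over the other tumours. That call was lost in 6 of 17 alternatives, those without either T8 array, the second T3 array or the first T2 array among them. EGFR, the receptor upstream, rose by 0.62 to 11.24 and 11.40. Its T3-particular call was lost in 4 of 18 alternatives, those without the second T3 or T8 array among them. The further probe sets of EGFR differed between T3 and T8 by -0.21 to 0.33, so that this call depends on the probe set.

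NF-kB subunits and targets moved both ways, with 12 of 28 higher and 7 lower (22.1% and 15.8% of all genes) and a median of 0.04. Beside PTGS2 and CXCL8, CXCL1 rose by 2.03. IL6 fell from 8.38 and 8.30 to 7.76 and 7.93, below means of 8.14, 9.01 and 8.45 in T2, T6 and T8, and TNFAIP2 fell from 9.20 and 9.17 to 8.26 and 8.47. The T3-particular call of IL6 was lost in 3 of 18 alternatives, those without the second T2 or the first T3 array among them. That of TNFAIP2 held under each array left out. T3 was lower than T2, T6 and T8 in 13, 10 and 11 of the 28 genes (13.9%, 13.7% and 13.8% of all genes). It was higher in 6, 4 and 3 (16.9%, 11.3% and 4.66% of all genes).

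Of 23 measured genes raised in metastatic MDA-MB-231 sublines or known to oppose them, 15 rose in T3 and 5 fell, with a median of 0.79. CXCR4, a chemokine receptor, rose from 9.50 and 9.22 to 11.77 and 11.95, and ADAMTS1, a metalloprotease, from 6.20 and 6.38 to 8.71 and 8.80. The other tumours differed from T3 in both directions. Against T2 7 members were higher in T3 and 8 lower, where 16.9% and 13.9% of all genes were. The numbers were 10 and 9 against T6 (11.3% and 13.7% of all genes) and 4 and 8 against T8 (4.66% and 13.8%). The T3-particular members were PTGS2, TNC and MMP3 among the rises and ID1, ID3 and LY6E among the falls. S100A4, a calcium-binding protein of mesenchymal cells, fell from 13.12 and 13.05 to 10.47 and 10.51. The other tumours were also below the parental cells, with means of 10.37 in T2, 11 in T6 and 11.49 in T8.

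Matrix and adhesion genes fell in part. The 3 collagen VI chains were T3-particular: COL6A1 fell from 9.68 and 9.64 to 7.84 and 7.96, COL6A2 from 8.78 and 8.66 to 7.03 and 7.02, and COL6A3 from 8.66 and 8.65 to 6.95 and 7.12. The means of the other tumours were 8.76 to 9.25, 7.94 to 8.33 and 7.74 to 8.63. For COL6A1 the call was lost when its probe sets were averaged. Of 20 integrins and laminins 8 fell and 3 rose. ITGB4, the integrin of hemidesmosomes, fell by 1.61 to 8.05 and 7.96, and LAMB1, a laminin chain, by 0.54 to 8.71 and 8.75 while T2 and T6 had risen to 10.60 and 9.98. Both were T3-particular.

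Guidance factors and their receptors split evenly among the T3-particular genes. Of 24 measured, 7 were higher and 5 lower than in the parental cells. SEMA3E, SEMA3A, SEMA7A and SLIT2 were the T3-particular rises, SEMA3E tested through its T3 arrays alone, and SEMA3C, SEMA3F, EFNB2 and PLXND1, the receptor of SEMA3E, the falls. PLXND1 fell from 8.82 and 8.77 to 8.19 and 8.03, and SLIT2 rose from 8.40 and 8.63 to 8.905 and 9.004. Both held with each array left out; the calls of SEMA3A, SEMA7A, SEMA3C, SEMA3F and EFNB2 were each lost without the first T8 array, among others. ROBO1, the receptor of SLIT2, rose by 2.86, to levels common to the 4 tumours.

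In the Hippo list, targets of the factors YAP and TAZ, 9 of 16 rose and none fell (5 rose without the second parental or T3 array), with NT5E, the ectonucleotidase CD73, T3-particular at 12.15 and 12.42 against 11.65 and 11.53. In the Notch list 9 of 19 fell and 2 rose. Among phospholipase C and RGS genes 7 of 18 rose (4 without the second T3 array), and PLCB4 and RGS4 were T3-particular. RGS4, which shuts off G protein signals, was 8.61 and 8.73 in the parental cells, 7.69 to 7.92 on the arrays of the other tumours and 9.83 and 10.01 in T3, so that T3 moved opposite to all 3 others. PLCB4 rose from 4.09 and 4.44 to 7.43 and 7.50, with a mean of 6.35 in T2 and below log2 5 in T6 and T8. Proliferation genes were near the shares of all genes, 5 of 26 higher and 7 lower; CCNE1, cyclin E1, fell from 9.56 and 9.50 to 8.45 on both T3 arrays and was T3-particular. The count of proliferation genes lower was 12 after repeated quantile normalisation and 4 after centring, and CCNE1 and NT5E lost their T3-particular calls when probe sets were averaged.

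**Figure D3:**
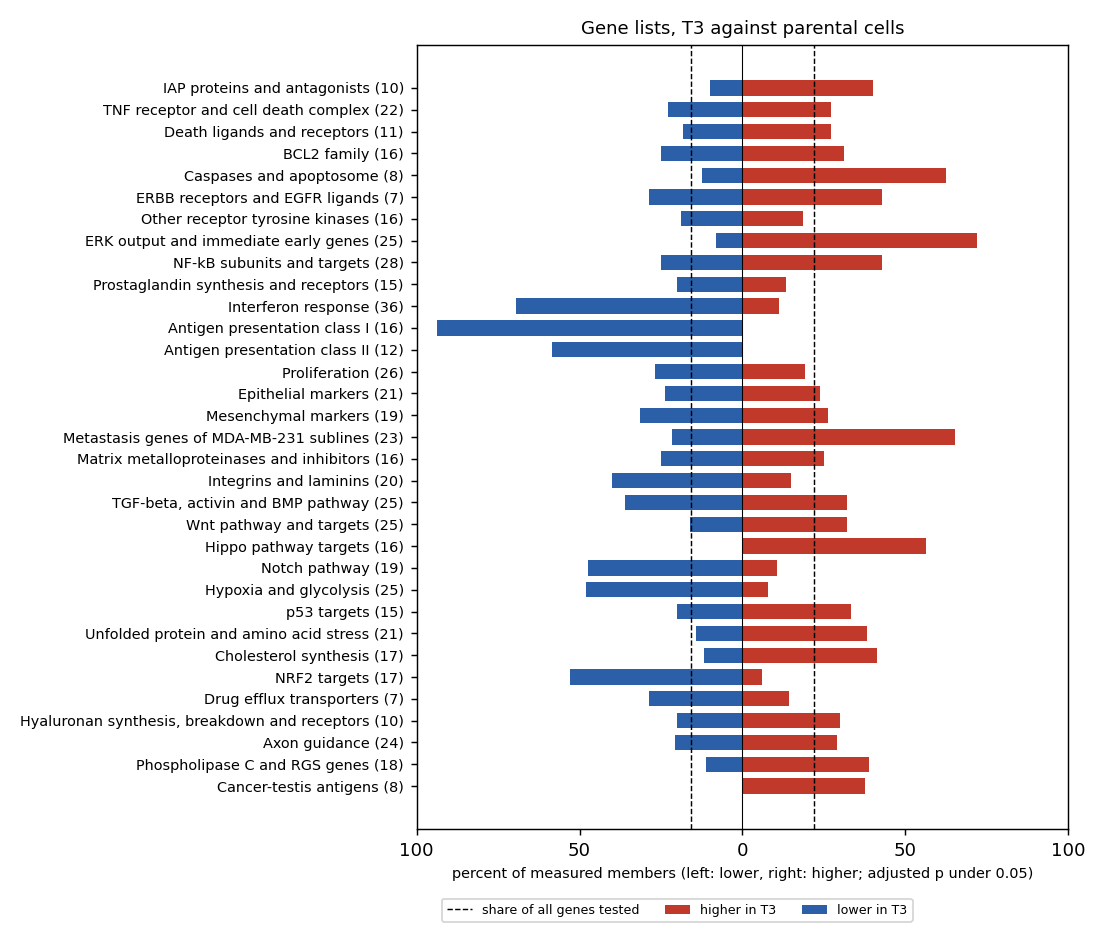
Percent of the measured members of each gene list (number in brackets) that were called higher (right) or lower (left) in T3 than in the parental cells; the dashed lines mark the shares over all genes tested, 22.1% and 15.8%. Class I antigen presentation and the interferon response reach furthest to the left, and ERK output and the metastasis genes furthest to the right.

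Some T3-particular genes lay side by side on the chromosomes. For each run of 25 tested genes in chromosomal order the median of T3 minus the mean of T2, T6 and T8 was taken; the runs below were chosen for these values, which are given as a description with no test. On chromosome 6 the run from SLC35A1 to COQ3 had a median of 0.50. All 25 of its genes were higher in T3 than in the mean of the others, and 21 were called above the parental cells. Medians of this run against the parental cells were 0.73 in T3, 0.49 in T8, 0.18 in T6 and 0.06 in T2. The stretch around it in which the running median stayed above 0.2 held 69 genes from HTR1B to MTRES1, 23 of them T3-particular rises. Among these were POU3F2, a neural transcription factor (4.18 and 4.10 in parental cells, 6.31 and 6.62 in T3), UBE2J1, an enzyme of protein degradation at the endoplasmic reticulum (9.08 and 8.99 against 10.13 and 10.26), and NDUFAF4, an assembly factor of respiratory complex I (10.21 and 10.02 against 10.95 and 11.11). In POU3F2 T3 exceeded T2, T6 and T8 by 2.09, 2.37 and 1.68, so these tumours lay near background, as the parental cells did. The difference of POU3F2 is thus measured against background, and its size is uncertain. Chromosome 6 held 83 of the 349 T3-particular rises with 784 of the 14929 genes tested, MAP3K7 and NT5E included.

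On chromosome 4 the run from TMEM131L to CPE had a median of 0.45 over the other tumours, in a stretch of 129 genes with 20 T3-particular rises; FNIP2 was at 8.66 and 8.27 in parental cells and 9.28 and 9.55 in T3, a T3-particular call that was lost without the second T3 or T8 array. On the X chromosome a run from NAP1L3 to BEX2 had a median of 0.67. There T8 minus the mean of the 3 others was 0.42, T6 -0.05 and T2 -0.94. Against the parental cells the medians of that run were 0.63 in T3, 0.47 in T8, 0.09 in T6 and -0.48 in T2. Earlier in the gene order a run from CRLF2 to CLCN4 had a median of -0.67. The stretch around the latter held 78 genes, 24 of them T3-particular falls, among them CSF2RA, a chain of the GM-CSF receptor, at 9.59 and 9.58 in parental cells, means of 9.68, 9.29 and 8.49 in T2, T6 and T8, and 7.89 and 7.78 in T3. T8 showed the same sign as T3 in this run (-0.22) and T2 and T6 the opposite one (0.47 and 0.42).

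A run at the start of the gene order of chromosome 8, from TDRP to MTMR9, had a median of -0.51. Its medians against the parental cells were -0.36 in T3, -0.30 in T8, 0.02 in T6 and 0.01 in T2. In this run PRAG1 fell from 10.56 and 10.53 to 8.18 and 8.26. On chromosome 12 the run from DUSP16 to AEBP2 had a median of -0.31 against the other tumours and 0.04 against the parental cells, while T2, T6 and T8 had medians of 0.38, 0.30 and 0.19. On chromosome 19 the run from CIB3 to GTPBP3 had a median of 0.34 with 1 T3-particular rise, USE1. That call was lost without the second T3 or the first T8 array. The run had medians against the parental cells of 0.52 in T3, 0.41 in T8, 0.09 in T6 and 0.00 in T2. Chromosome 21, with 166 of the 14929 genes tested, held none of the 349 T3-particular rises and 15 of the 495 falls. TIAM1, COL6A1 and COL6A2 were among these falls. Over all genes tested, T3-particular rises made up 2.34% and falls 3.32%. Copy number was not measured.

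**Figure D4:**
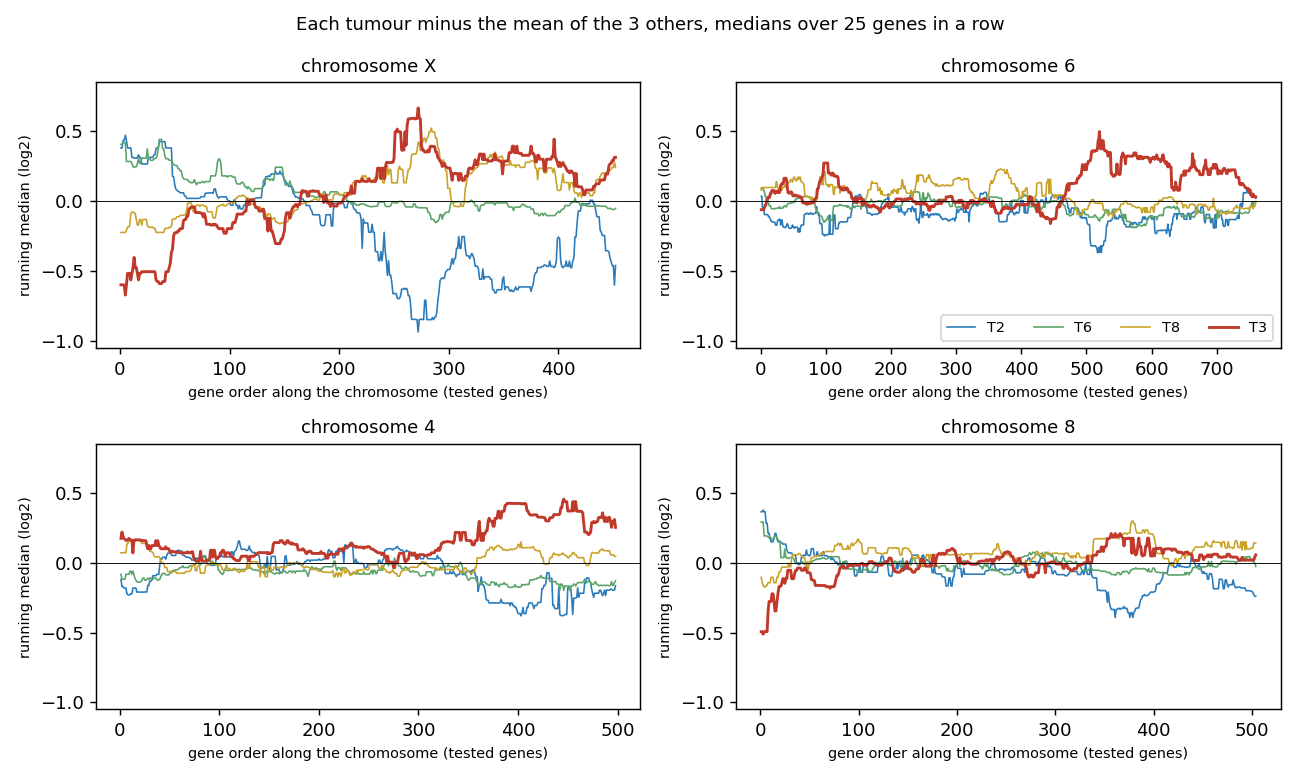
Running median over 25 tested genes (log2, vertical axis) of each tumour minus the mean of the 3 others, along the gene order of 4 chromosomes (horizontal axis, numbered in tested genes). T3 (red) rises to 0.50 on chromosome 6 and 0.45 on chromosome 4, and reaches -0.67 and 0.67 on the X chromosome and -0.51 on chromosome 8.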

How the data were processed

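Total RNA of MDA-MB-231 parental cells and of cells from 4 regrown xenograft tumours was hybridised to Affymetrix arrays with 54675 probe sets, 2 arrays per line, from 5 ug of RNA per the labels. The deposited values are log2 levels per probe set, normalised across arrays by RMA; the tools affy, RMA and limma are named in the submitters' processing notes, with versions not given in the sources used here. Of the probe sets, 62 were controls, 41091 had 1 gene symbol, 1801 several and 11721 none in the platform annotation, and 41037 symbols were updated through Entrez numbers to RefSeq GRCh38.p14.

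Each gene was represented by the probe set that was brightest on average across the 10 arrays. The values were fitted in R 4.3.3 with limma 3.58.1 (lmFit, eBayes with trend; 5 residual degrees of freedom), 1 coefficient per line, and tested on simulated data with known changes. Genes were named by rule: the 12 largest differences in each direction from the parental cells, the 15 largest T3-particular ones by the least of their 4 differences, up to 6 that stood apart from the other tumours alone, 10 genes of the drug's pathway of which 8 were measured, list members (up to 4 in each direction) and members of the chromosomal runs; further members were named after their values were seen. The lists, rules and members were chosen with earlier results of these data known. The 19 alternatives changed scaling, filter, probe set choice, variance model, samples or blocking.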

Additional observations from a re-analysis of the deposited data

Results flagged for a closer look

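Against the parental cells, 520 genes were called in 1 direction in T3 and in the other direction in at least 1 other tumour, with T3 and that tumour also called apart: 443 for T2, 195 for T6, 79 for T8 and 28 for all 3. Among the genes with the largest changes in T3, these were the following. The rise of CYP24A1 in T3 (3.01) stood against a fall of -0.67 in T2, that of MAGEC1 (3.71) against -0.47 in T2, and that of TNC (2.36) against -1.14 in T2. MAGEA6 rose by 1.69 in T3 and differed by -0.72 in T2, -0.80 in T6 and -0.60 in T8, of which the last was not called. Among the falls, MAL2 differed by -1.92 in T3 and 0.57 in T2, and GAL by -1.35 and 0.48. TRBC1 differed by -1.91 in T3, 1.07 in T2 and 0.75 in T6, UCA1 by -1.32, 1.47 and 1.36, SHANK2 by -1.32, 1.06 and 0.39, GPRC5C by -1.38, 0.81 and 0.63, and EPB41L1 by -1.01, 0.52 and 0.92. SUSD3 differed by -1.001 in T3 and 0.26 in T8. The comparisons share the parental arrays.

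Probe sets with no gene symbol or with several were not part of the gene comparisons. T3-particular rises and falls made up 2.34% and 3.32% of the genes tested. Of 5515 tested probe sets with no symbol or several, 57 were higher and 90 lower in T3 than in parental cells and each other tumour. A probe set for MAGEA6 and MAGEA3 together was among them, with a mean of 5.89 in parental cells, 7.999 in T3 and 5.21 to 5.71 in the other tumours.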

How the results depend on the processing

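Leaving out each array in turn gave 2085 to 3518 genes higher and 1906 to 2497 lower in T3 than in the parental cells, 283 to 390 and 221 to 255 of them by at least log2 1. T3-particular genes numbered 171 to 410 higher and 260 to 534 lower, and genes apart from the other tumours alone 36 to 128 higher and 176 to 481 lower. T3-particular rises numbered 549 after repeated quantile normalisation, and after median centring there were 203 rises and 313 falls. Genes higher than the other tumours alone numbered 201 after quantile normalisation, 32 after centring, 55 with probe sets averaged and 58 without less specific probe sets. Averaging moved the medians of the runs from NAP1L3 to BEX2 (0.52), CIB3 to GTPBP3 (0.27), CRLF2 to CLCN4 (-0.51) and TDRP to MTMR9 (-0.39), and leaving out less specific probe sets gave 0.25 for CIB3 to GTPBP3 and -0.59 for CRLF2 to CLCN4. With arrays left out these runs ranged from 0.58 to 0.70, 0.27 to 0.36, -0.68 to -0.57 and -0.55 to -0.44, and those from SLC35A1, TMEM131L and DUSP16 from 0.40 to 0.58, 0.34 to 0.62 and -0.33 to -0.25. The differences of CD44 and VIM from the parental cells were -0.24 and -0.05 with probe sets averaged, and those of CASP9 and TAGLN -0.04 and -0.03 without less specific probe sets. The cause of these shifts was not tested. Replicate numbers did not pair the arrays in a common direction. Deviations of same-numbered arrays from their line means correlated at -0.387 (parental and T2) to 0.502 (T2 and T3). Whether arrays of different lines shared some other factor was not tested. With the replicate block 3193 genes were higher and 2288 lower, 317 and 470 of them T3-particular.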

Other observations

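The lists of NRF2 targets, cholesterol synthesis, unfolded protein and amino acid responses and drug efflux transporters held no T3-particular gene. Of 17 NRF2 targets, genes of the response to oxidants, 9 were lower in T3 than in the parental cells and 1 higher, with NQO1 at 11.39 and 11.28 in parental cells and 10.39 and 10.48 in T3; T2, T6 and T8 had means of 10.30 to 10.73. AKR1C1 fell from 9.02 and 8.96 to 7.67 and 7.75, again as in the other tumours (7.34 to 7.77). Of 17 genes of cholesterol synthesis 7 rose and 2 fell, with STARD4, a sterol carrier, up by 0.91; T3 was higher than T2 in 8, T6 in 4 and T8 in 1, and lower in 1, 2 and 3. Among 21 genes of the unfolded protein and amino acid responses 8 rose and 3 fell; T3 was higher than T2 in 8, T6 in 9 and T8 in 2, and lower in 4, 5 and 1. PHGDH, the entry enzyme of serine synthesis, was 6.79 and 6.99 in the parental cells, 6.66 and 6.76 as means in T2 and T6, and 8.29 in T8, close to 8.31 and 8.33 in T3. ABCG2, a drug efflux transporter, was lower by 0.78 in T3, at 7.28 and 7.27 against 7.96 and 8.16, and T8 shared this level (7.26).

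MDA-MB-231 carries mutant p53. Of 15 measured p53 targets 5 rose and 3 fell in T3, where 22.1% and 15.8% of all genes did. CDKN1A, the inhibitor p21, fell from 11.18 on both parental arrays to 10.63 and 10.69 and was called below all 3 other tumours. That call was lost in 7 of 17 alternatives, those without the first T3 array or any 1 of the T6 and T8 arrays among them. Receptor kinase genes outside the ERBB family split 3 and 3 of 16; ROR1, a receptor of WNT5A, rose from 9.78 and 9.75 to 10.17 and 10.25 while the other tumours had fallen to 9.22 to 9.41. WNT5A itself was 3.63 and 3.99 in the parental cells, 3.83 to 4.18 as means in the other tumours and 5.32 and 5.33 in T3. It reached log2 5 only on the T3 arrays, so its call carries no weight. ROR1 was called higher in T3 than in all other lines, a call lost when its probe sets were averaged.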
